A study of Mus musculus with 6 samples.

Results

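The ceramide and acylceramide genes of the skin barrier were followed in skin of LynDN transgenic and wild-type (WT) mice. The set was chosen by name as 39 genes for the enzymes, regulators and transporters that make, modify, move and break down ceramides, and 36 of them had a row in the deposited table, out of 18617 named genes. Sptlc2, Cers3 and Pnpla1 had no row under their own symbol or Entrez identifier and were not analysed here. Each of the 36 was measured by 1 probe, so no second probe checked any value.

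Ceramides are built from serine and fatty acid on the endoplasmic reticulum, desaturated or hydroxylated, and then turned into glucosylceramide or sphingomyelin. In the upper epidermis both are packed into lamellar granules, secreted and cut back to ceramide, which together with cholesterol and free fatty acids forms the water barrier of the cornified layer. Acylceramides, which carry an omega-hydroxylated very long fatty acid with an added linoleate, are particular to that barrier. Ceramidases release sphingosine, which can be phosphorylated, recycled or irreversibly cleaved.

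Skin RNA of 3 WT and 3 LynDN mice was hybridised in 3 mouse pairs on 2-colour arrays, each pair on 2 arrays with the dyes exchanged. Pair 1 joined LynDN mouse 1 with WT mouse 1, pair 2 LynDN mouse 2 with WT mouse 3, and pair 3 LynDN mouse 3 with WT mouse 2. LynDeltaN, the title's name for the transgene product, is a shortened form of Lyn, a Src family tyrosine kinase. No label gives the promoter behind the transgene or the strain, age and sex of the mice. Values are log2 ratios with the sign as deposited, and the sources do not state which genotype is the numerator. Positive and negative therefore mark opposite sides, and all signs would turn together if the numerator were the other genotype. Base 2 was assumed for the logarithm, which the labels leave unstated. A ratio holds no level, so neither abundance nor the labelled tissue could be checked by markers that are present or absent. In whole skin, fewer cells of a type and less RNA per cell cannot be told apart.

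Pair 1 stood apart from the others before any ceramide gene is considered. The Y-linked gene Eif2s3y read 3.38 and 3.62 in pair 1 and lay between -0.04 and 0.09 on the other 4. Over all 22879 rows the arrays of a dye swap correlated at r = 0.0239 in pair 1 and at 0.463 and 0.462 in pairs 2 and 3. The stress keratin Krt6b had 3.31 and 3.57 for pair 1 and between 5.17 and 5.72 elsewhere, so pair 1 ran the same way as the others in that gene. Results are given over the 3 pairs and, where the call differs, without pair 1.

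Most of the ceramide genes fell into 3 patterns, shown in the map of ratios by gene and array. Degs2, Smpd3, Ugcg and Gba2 had large positive ratios on all 4 arrays of pairs 2 and 3 and none in pair 1. Sphk1, Sgpp1 and Sgpl1, which act on sphingosine 1-phosphate, were negative on all 6 arrays. Of the others, 24 members had a mean within 0.25 of 0 on the log2 scale. Means this close to 0 were thus less frequent in the set (24 of 36) than among all rows (20914 of 22879). Outside the 3 patterns, Abhd5, Slc27a4, Sptlc3, Degs1 and Cyp4f39 had positive means from 0.25 to 0.35. The members' median was 0.02, with -0.02, 0.08 and 0.01 in pairs 1, 2 and 3, and the median of all rows was -0.01. When all rows were tested on the 3 pair values, no member passed (limma, Benjamini-Hochberg adjusted p under 0.05): 0 of 36, where 0.0175% of rows passed positive and 0% negative. At an unadjusted p under 0.05, 6 members were positive and 4 negative (16.7% and 11.1%), against 5.92% and 6.41% of all rows.

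**Figure D1:**
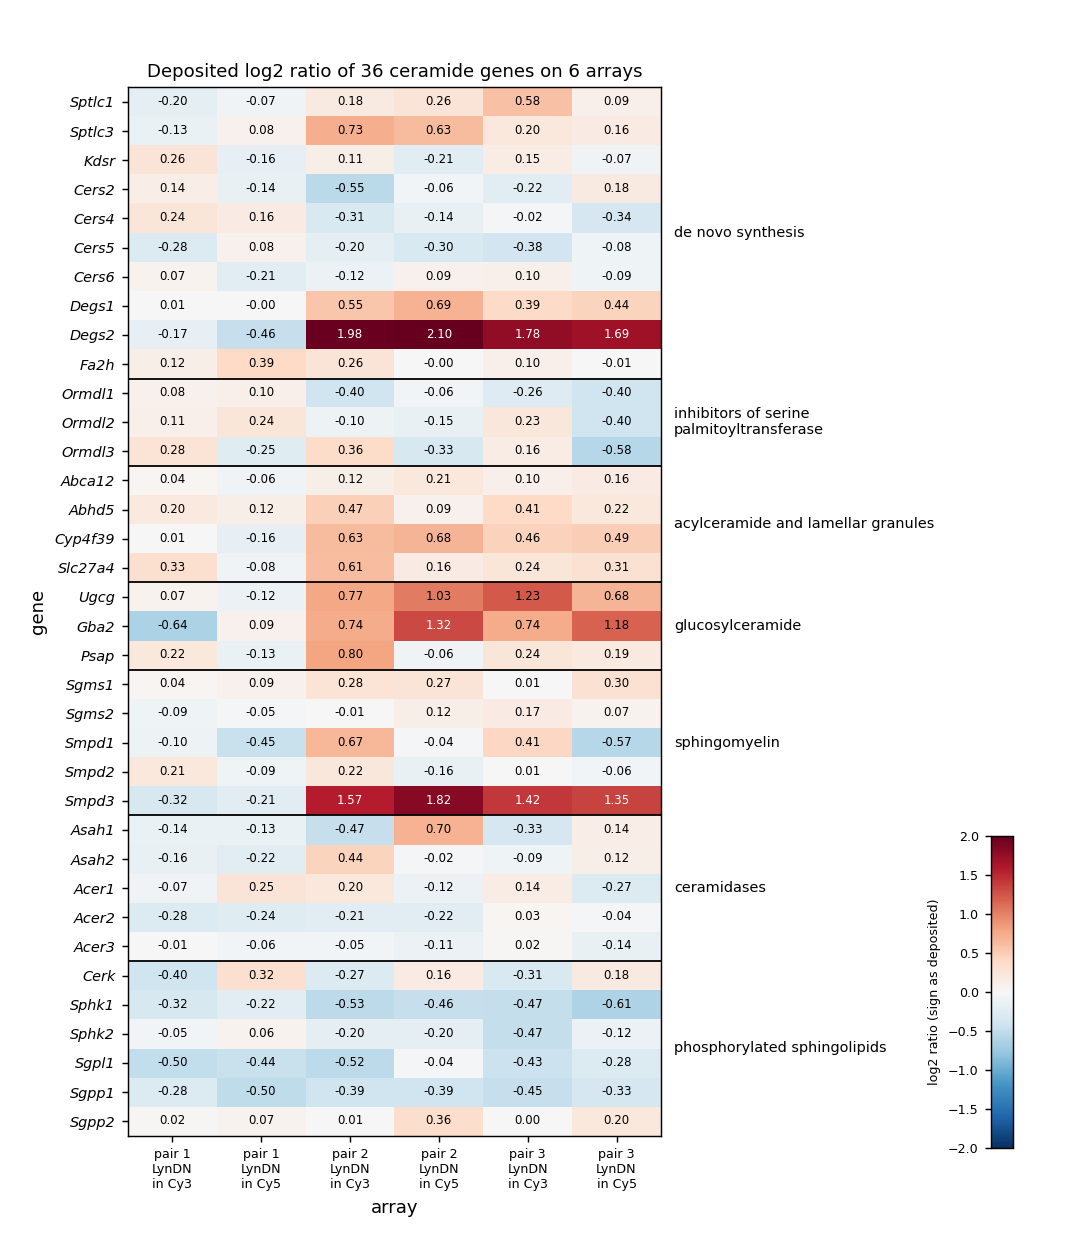
Deposited log2 ratio of each of 36 ceramide genes (rows, grouped by role) on each of 6 arrays (columns), with red for positive and blue for negative values. Degs2 and Smpd3 lie between 1.35 and 2.10 in pairs 2 and 3 and below 0 in pair 1, and Sphk1, Sgpp1 and Sgpl1 are blue in every column.

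The windows of 250 bases before the start sites of 6 genes that carry these patterns are shown. Degs2, Ugcg and Gba2 shared positive ratios in pairs 2 and 3, and Sphk1, Sgpp1 and Sgpl1 a negative sign on every array. The order of the pairs was not shared: Sphk1 was least negative in pair 1 and Sgpl1 most negative there. The windows come from RefSeq (GRCm38.p6) and are written 5' to 3' on the gene's strand. Capitals mark matches to the letters searched. A promoter was listed for 33 of the 36 measured genes, and Smpd3 was not among them. Sphk1 has 5 start sites in that table, and the window of the first listed is shown.
Degs2 (chr12:108702307-108702556, minus strand): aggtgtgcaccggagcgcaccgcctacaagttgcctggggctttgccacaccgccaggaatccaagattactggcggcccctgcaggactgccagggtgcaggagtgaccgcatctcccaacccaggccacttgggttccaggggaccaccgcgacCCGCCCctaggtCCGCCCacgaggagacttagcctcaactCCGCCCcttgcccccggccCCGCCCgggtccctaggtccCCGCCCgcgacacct
Ugcg (chr4:59189300-59189549, plus strand): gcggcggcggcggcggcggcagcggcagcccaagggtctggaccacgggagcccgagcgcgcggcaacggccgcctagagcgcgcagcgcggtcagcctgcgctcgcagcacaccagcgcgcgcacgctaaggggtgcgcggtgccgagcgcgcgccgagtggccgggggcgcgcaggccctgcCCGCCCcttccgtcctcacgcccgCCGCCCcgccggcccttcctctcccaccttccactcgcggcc
Gba2 (chr4:43578865-43579114, minus strand): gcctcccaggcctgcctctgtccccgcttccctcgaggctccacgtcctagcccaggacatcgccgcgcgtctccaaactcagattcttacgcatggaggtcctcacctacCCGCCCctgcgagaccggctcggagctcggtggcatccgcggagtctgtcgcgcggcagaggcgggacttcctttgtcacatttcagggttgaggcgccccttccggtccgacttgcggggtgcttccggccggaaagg
Sphk1 (chr11:116530850-116531099, plus strand): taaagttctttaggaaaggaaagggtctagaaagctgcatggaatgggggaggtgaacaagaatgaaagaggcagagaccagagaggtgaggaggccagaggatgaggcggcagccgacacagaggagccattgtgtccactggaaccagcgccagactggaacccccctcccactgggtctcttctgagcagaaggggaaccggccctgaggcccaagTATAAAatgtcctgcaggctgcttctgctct
Sgpp1 (chr12:75735730-75735979, minus strand): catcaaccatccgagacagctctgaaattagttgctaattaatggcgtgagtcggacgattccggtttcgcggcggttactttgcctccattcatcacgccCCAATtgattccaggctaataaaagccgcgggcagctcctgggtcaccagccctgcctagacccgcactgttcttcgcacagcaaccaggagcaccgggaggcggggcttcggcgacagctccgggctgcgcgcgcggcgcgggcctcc
Sgpl1 (chr10:61147685-61147934, minus strand): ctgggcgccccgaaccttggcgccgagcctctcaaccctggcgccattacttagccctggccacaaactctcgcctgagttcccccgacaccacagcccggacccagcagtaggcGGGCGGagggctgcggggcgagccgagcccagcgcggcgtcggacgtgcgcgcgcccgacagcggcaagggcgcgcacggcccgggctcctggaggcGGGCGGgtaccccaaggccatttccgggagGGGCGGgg

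Matches to the GC box numbered 5 in the Degs2 window, 2 in Ugcg, 1 in Gba2, 3 in Sgpl1 and 0 in Sphk1 and Sgpp1. Searched on both strands were the GC box (GGGCGG), the CCAAT box (CCAAT), the TATA box (TATAAA), AP-1 (TGANTCA) and STAT (TTCNNNGAA). The GC box was found in 21 of 33 members' windows and in 32.9% of the 27025 windows of the table, which also holds genes that code for no protein. Sgpp1 held 1 CCAAT box, as 34.5% of all windows held at least 1. None of the 6 windows held the AP-1 or STAT letters, which were in 6.87% and 7.18% of all windows. Sphk1 held 1 TATA box and was the only 1 of the 33 members to hold it, while 13.0% of all windows did. Such matches describe the letters in these windows and show no binding.

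De novo synthesis begins with serine palmitoyltransferase, whose Sptlc1 subunit pairs with Sptlc2 or Sptlc3. Sptlc3 had -0.13 and 0.08 in pair 1, 0.73 and 0.63 in pair 2, then 0.20 and 0.16 in pair 3 (in each pair the array with LynDN in Cy3 comes before that with LynDN in Cy5). Its mean log2 ratio was 0.28 ± 0.36 (SD, n = 3; limma adjusted p = 0.497). Pair 2 was high for Sptlc3 and pair 1 lay around 0. Sptlc1 had a mean of 0.14 ± 0.24, and Kdsr, the reductase of the next step, had 0.01 ± 0.05. The inhibitors of this enzyme were near 0 or slightly negative, with -0.16 ± 0.22 for Ormdl1, -0.01 ± 0.16 for Ormdl2 and -0.06 ± 0.13 for Ormdl3. Ormdl1 had 0.08 and 0.10 in pair 1, -0.40 and -0.06 in pair 2, then -0.26 and -0.40 in pair 3 (adjusted p = 0.556, limma). It was thus positive in pair 1 and negative in the others.

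Ceramide synthases, which join a fatty acid to the sphingoid base and differ in the chain length they accept, showed small ratios. Cers5 had -0.28 and 0.08 in pair 1, -0.20 and -0.30 in pair 2, then -0.38 and -0.08 in pair 3. Its mean was -0.19 ± 0.08 (SD, n = 3; limma adjusted p = 0.331), with 5 of 6 arrays negative. Cers2, Cers4 and Cers6 had means of -0.11 ± 0.17, -0.07 ± 0.24 and -0.03 ± 0.04. All 4 measured synthases had a negative mean, and none passed. Cers3, the synthase of the longest epidermal chains, was not analysed here. Fa2h, which hydroxylates the fatty acid, had 0.14 ± 0.11.

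Degs2 had the largest mean ratio of the set. Degs1 introduces the double bond that makes dihydroceramide into ceramide, and Degs2 adds a hydroxyl group that gives the phytoceramides of skin. Degs2 had -0.17 and -0.46 in pair 1, 1.98 and 2.10 in pair 2, then 1.78 and 1.69 in pair 3. The dye-swapped arrays of a pair lay close together, while pair 1 and the others lay on opposite sides of 0. The mean of Degs2 over 3 pairs was 1.15 ± 1.28 (SD, n = 3; 95% interval -0.06 to 2.37; limma adjusted p = 0.422). Without pair 1 the mean log2 ratio was 1.89, or 3.70-fold, and it passed over all rows (limma adjusted p = 0.00174, 2 pairs). Degs1 followed at a smaller size, with 0.01 and -0.0022 in pair 1, 0.55 and 0.69 in pair 2, then 0.39 and 0.44 in pair 3. Its mean was 0.35 ± 0.31 (adjusted p = 0.384), and 0.52 without pair 1 (adjusted p = 0.0337, limma).

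Genes for acylceramide and its transport all had positive means, and none passed over the 3 pairs. Cyp4f39, the omega-hydroxylase that prepares very long fatty acids for acylceramide, had 0.01 and -0.16 in pair 1, 0.63 and 0.68 in pair 2, then 0.46 and 0.49 in pair 3. It too was near 0 or below in pair 1 and positive elsewhere, with a mean of 0.35 ± 0.38 (adjusted p = 0.429) and of 0.57 without pair 1 (adjusted p = 0.0241, limma). Abhd5, a coactivator of lipid hydrolases and of the transacylase Pnpla1, had 0.20 and 0.12, 0.47 and 0.09, and 0.41 and 0.22 in pairs 1, 2 and 3. It was positive on all 6 arrays, at 0.25 ± 0.08 (SD, n = 3; 95% interval 0.10 to 0.40; limma adjusted p = 0.278). Slc27a4, a fatty acid transport protein with acyl-CoA synthetase activity, had 0.33 and -0.08, 0.61 and 0.16, and 0.24 and 0.31, with a mean of 0.26 ± 0.13 (adjusted p = 0.298). Abca12, which loads lipid into lamellar granules, had 0.10 ± 0.09. Its 4 arrays of pairs 2 and 3 lay between 0.10 and 0.21 and those of pair 1 at 0.04 and -0.06.

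**Figure D2:**
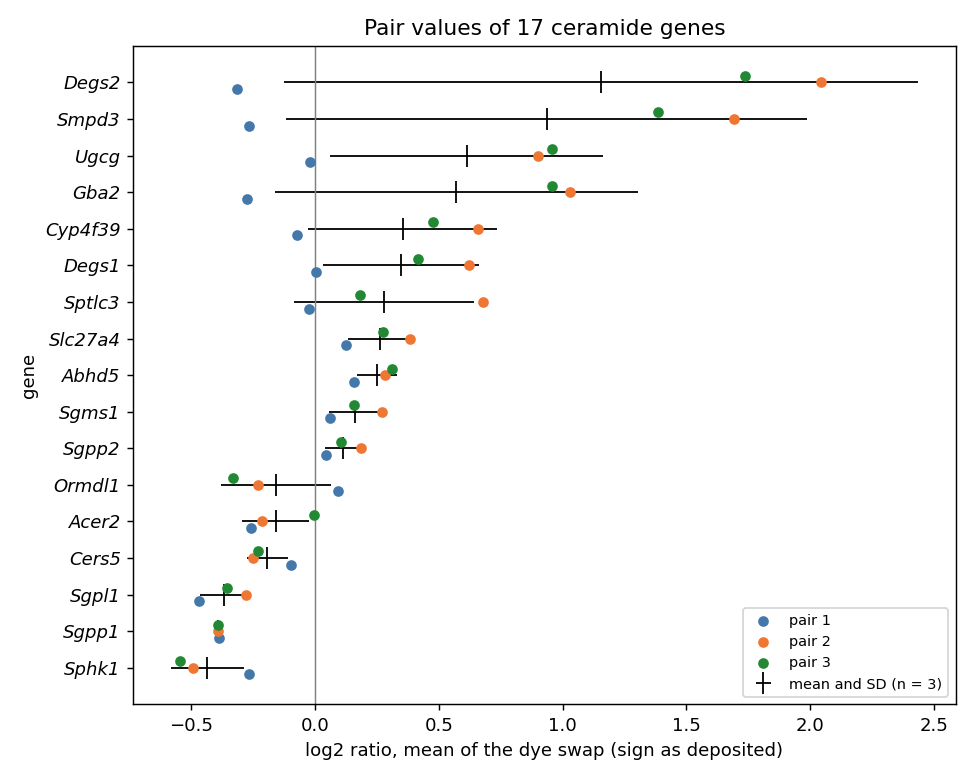
Log2 ratio of each mouse pair (coloured points, the mean of the 2 dye-swapped arrays) for 17 ceramide genes on the vertical axis, with the mean and SD over 3 pairs (black). From Degs1 up to Degs2 the pair 1 point lies at 0.0036 or below while those of pairs 2 and 3 are positive, whereas the 3 points of Sgpp1 coincide at -0.39.

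Of the glucosylceramide genes, Ugcg and Gba2 differed between the pairs in the same way, while the arrays of Psap overlapped. Ugcg makes glucosylceramide, the form in which most ceramide enters lamellar granules. It had 0.07 and -0.12 in pair 1, 0.77 and 1.03 in pair 2, then 1.23 and 0.68 in pair 3, and the arrays of pair 1 did not overlap with the others. Its mean was 0.61 ± 0.55 (SD, n = 3; 95% interval 0.08 to 1.15; limma adjusted p = 0.365), and 0.93 or 1.90-fold without pair 1 (adjusted p = 0.0042). Gba2, a glucosylceramidase outside the lysosome, had -0.64 and 0.09, 0.74 and 1.32, and 0.74 and 1.18 in pairs 1, 2 and 3. Its mean was 0.57 ± 0.73 (adjusted p = 0.477), and 0.99 or 1.99-fold without pair 1 (adjusted p = 0.00361, limma). The SD leaves out the gap between the arrays of pair 1, and in all pairs the array with LynDN in Cy5 was the higher one. Psap encodes the saposin precursor, whose products help lysosomal glucosylceramidase, and had 0.21 ± 0.16 with values from -0.13 to 0.80. Its mean was 0.42 on arrays with LynDN in Cy3 and -0.0019 on those with LynDN in Cy5.

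Among sphingomyelin genes Smpd3 stood out. It encodes a neutral sphingomyelinase, which releases ceramide from sphingomyelin. Smpd3 had -0.32 and -0.21 in pair 1, 1.57 and 1.82 in pair 2, then 1.42 and 1.35 in pair 3. Pair 1 was negative on both arrays, and the other 4 arrays were at least 1.35. The mean was 0.94 ± 1.05 (SD, n = 3; 95% interval -0.07 to 1.94; limma adjusted p = 0.428), and 1.54 or 2.90-fold without pair 1 (adjusted p = 0.00305). The other neutral sphingomyelinase, Smpd2, had 0.02 ± 0.04, and the acid sphingomyelinase Smpd1, which acts in lysosomes and the cornified layer, had -0.01 ± 0.30. For Smpd1 the mean was 0.32 on arrays with LynDN in Cy3 and -0.35 on those with LynDN in Cy5. Sphingomyelin synthase Sgms1 had 0.04 and 0.09, 0.28 and 0.27, and 0.01 and 0.30 in pairs 1, 2 and 3. It was positive on all 6 arrays at 0.16 ± 0.11 (adjusted p = 0.395, limma), and its paralog Sgms2 had 0.04 ± 0.09.

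Ceramidases, which split ceramide into sphingosine and fatty acid, stayed near 0. The 5 means ran from -0.16 for Acer2 to 0.02 for Acer1. Acer2, an alkaline ceramidase of the Golgi, had -0.28 and -0.24 in pair 1, -0.21 and -0.22 in pair 2, then 0.03 and -0.04 in pair 3 (mean -0.16 ± 0.14; limma adjusted p = 0.443). Pairs 1 and 2 were negative and pair 3 was around 0. Acer3, Asah1 (the acid ceramidase) and Asah2 (the neutral one) had -0.06 ± 0.03, -0.04 ± 0.13 and 0.01 ± 0.20. For Asah1 the array with LynDN in Cy3 gave -0.47 in pair 2 and the other 0.70, a gap hidden by averaging the swap. No ceramidase passed in any fit.

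Sphk1, Sgpp1 and Sgpl1, enzymes of sphingosine 1-phosphate, had negative ratios in every pair. Sphk1 makes this signalling lipid, Sgpp1 dephosphorylates it and so returns sphingosine for ceramide synthesis, and the lyase Sgpl1 cleaves it for good. Sphk1 had -0.32 and -0.22 in pair 1, -0.53 and -0.46 in pair 2, then -0.47 and -0.61 in pair 3. Sgpp1 had -0.28 and -0.50, -0.39 and -0.39, and -0.45 and -0.33 in the same order. Sgpl1 had -0.50 and -0.44, -0.52 and -0.04, and -0.43 and -0.28. All 18 values were negative, and for Sphk1 and Sgpp1 none was closer to 0 than -0.22.

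Their means were -0.44 ± 0.15 for Sphk1, -0.39 ± 0.0011 for Sgpp1 and -0.37 ± 0.10 for Sgpl1 (SD, n = 3), with adjusted p = 0.247, 0.198 and 0.247 in limma on the pair values. The 95% intervals were -0.62 to -0.25, -0.52 to -0.27 and -0.52 to -0.21. The SD of Sgpp1 is small because the dye swaps average to like values, while its single arrays ranged from -0.50 to -0.28. In a fit of the 6 arrays that takes the mouse pair as a random block, Sgpp1 and Sphk1 passed over all rows (limma adjusted p = 0.0267 and 0.0347) and Sgpl1 did not (0.0510). That fit used a single correlation of 0.151 between the arrays of a pair. Dye swaps of rows that vary between pairs thus count nearly as separate mice. In that fit 2 of 36 members passed negative and 0 positive (5.56% and 0%), against 0.459% and 0.603% of all rows. Without pair 1 the same 2 genes passed negative, at adjusted p = 0.0373 for Sgpp1 and 0.0195 for Sphk1. Without pair 2 and without pair 3 they did not (adjusted p = 0.819 and 0.904 for both).

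Of the paralogs of these enzymes, Sphk2 had a negative mean as Sphk1 did, and Sgpp2 had a positive one. No difference between paralogs was tested. Sphk2 had -0.16 ± 0.15, with -0.05 and 0.06 in pair 1 and -0.12 to -0.47 on the other arrays. Sgpp2 was positive on all 6 arrays, with 0.02 and 0.07 in pair 1, 0.01 and 0.36 in pair 2, then 0.0033 and 0.20 in pair 3 (mean 0.11 ± 0.07; limma adjusted p = 0.489). Sgpp1 and Sgpp2, phosphatases of the same substrate, thus lay on opposite sides on every array. Cerk, the ceramide kinase, had -0.05 ± 0.01. In all, 3 members were positive and 3 negative on all 6 arrays (8.33% each), against 3.72% and 4.31% of all rows.

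A contrast between pair 1 and the others showed in many members. Without pair 1, 6 members passed positive (Degs2, Smpd3, Gba2, Ugcg, Cyp4f39 and Degs1) and 2 negative in limma over all rows. These are 16.7% and 5.56% of 36, against 3.22% and 1.67% of all rows, and the test rests on 2 pairs. For 12 members every array of pairs 2 and 3 lay above both arrays of pair 1, and for 4 every array lay below (33.3% and 11.1%, against 8.34% and 8.59% of all rows). This count was set up after the values were seen. The 12 were Sptlc1, Sptlc3, Degs1, Degs2, Abca12, Cyp4f39, Ugcg, Gba2, Sgms2, Smpd3, Asah2 and Acer2, and the 4 were Cers4, Ormdl1, Sphk1 and Sphk2. For Sphk1 both sides were negative, and for Acer2 pairs 1 and 2 were.

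Across the 36 genes, pairs 2 and 3 correlated at r = 0.959 (rank correlation 0.880), with the same sign in 29 genes. For pair 1, r was -0.19 against pair 2 and -0.16 against pair 3, and 19 and 18 genes had the same sign. Over all 22879 rows, r was 0.745 for pairs 2 and 3, with the same sign in 14718 rows. For pair 1 it was 0.350 against pair 2 and 0.386 against pair 3, with the same sign in 11995 and 12425 rows. The members' sign counts for pair 1 were thus close in share to those of all rows. Within dye swaps the members' r was 0.188 in pair 1, 0.760 in pair 2 and 0.771 in pair 3. These are descriptions across genes, which are not independent replicates, and Degs2 and Smpd3 weigh heavily in them. The plot of pairs against each other shows these genes along the line of equal ratio for pairs 2 and 3 only.

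**Figure D3:**
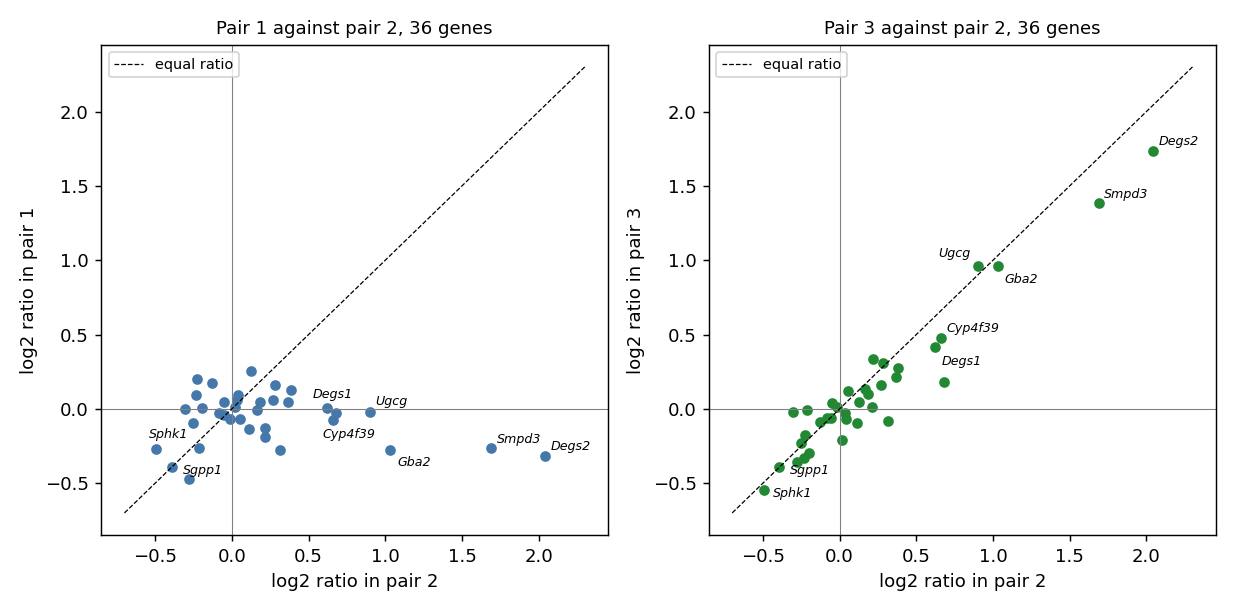
Log2 ratio of 36 ceramide genes (points) in pair 1 (left) and pair 3 (right) against pair 2, each the mean of 2 dye-swapped arrays, with a dashed line of equal ratio. Pair 3 follows the line (r = 0.959), whereas in pair 1 Degs2, Smpd3, Gba2 and Ugcg lie at or below 0 at pair 2 values of 0.90 to 2.04.

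Markers of some other cells also differed between pair 1 and the rest. The median log2 ratio of 5 macrophage markers was -0.04, 0.48 and 0.84 in pairs 1, 2 and 3, and that of 5 neutrophil markers 0.23, 0.46 and 0.44. For 10 hair follicle markers it was 0.07, -0.66 and -0.45, for 5 skeletal muscle markers -0.01, -0.58 and -0.69, and for 5 adipocyte markers 0.12, -0.52 and -0.24. Markers of granular and cornified keratinocytes (8 genes) had -0.24, -0.33 and -0.54, with Flg at -2.23 ± 0.86 and Krtdap at 0.63 ± 0.71. Basal keratinocyte markers (6 genes) had 0.23, 0.57 and 0.48, and stressed keratinocyte markers (3 genes) 2.38, 2.43 and 2.68. In both of these keratinocyte lists, granular and stressed, pair 1 lay nearer to pair 2 than pair 3 did. Sebocyte, fibroblast, T cell and endothelial markers had list medians of the mean ratio of 0.04, -0.11, -0.12 and -0.02. By pair, sebocyte markers had -0.01, 0.07 and 0.02, and fibroblast markers -0.23, 0.01 and -0.07. Pair 1 lay between the others for T cell markers (-0.15, -0.31 and 0.01) and endothelial markers (-0.01, -0.07 and 0.08). Of 4 sex-linked genes Xist had -1.31 and -0.80 in pair 1 and Kdm5d 1.46 and 1.02, while Uty had -0.11 and 0.24. The part of cell composition and of sex in the pair 1 contrast was not tested.

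Genes that act next to the ceramide pathway were read from 8 lists with 67 measured genes. In limma 0 passed on the pair values (14 and 4 had an unadjusted p under 0.05 on the positive and the negative side, where 5.92% and 6.41% of all rows did). With the block 2 passed positive and 0 negative, against 0.603% and 0.459% of all rows. Without pair 1 there were 9 positive and 2 negative, against 3.22% and 1.67% of all rows. The list of acylceramide use and the lipid envelope differed most between pairs. Its median over 12 genes was 0.04, 0.28 and 0.26 in pairs 1, 2 and 3. Some of the 12, such as Scd1 and Pnpla2, are lipid enzymes of broader use. Nipal4, a membrane protein mutated in ichthyosis, had 0.50 and 0.13 in pair 1, 1.10 and 0.67 in pair 2, then 0.93 and 0.81 in pair 3. It was positive on all arrays at 0.69 ± 0.33 (SD, n = 3; limma adjusted p = 0.271), and passed with the block (0.0407). Without pair 1, 5 of the 12 passed positive (limma): Nipal4, Alox12b, Sdr9c7, Ephx3 and Tgm1, the last 4 named after their values were seen.

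Alox12b, the lipoxygenase that oxidises the linoleate of acylceramide, had 0.0046 and -0.07 in pair 1, 1.60 and 1.12 in pair 2, then 1.36 and 1.31 in pair 3. Sdr9c7, a dehydrogenase of the same route, had 0.16 and -0.09, 0.98 and 1.03, and 1.13 and 0.69. The epoxide hydrolase Ephx3 had 0.15 and -0.07, 0.63 and 0.55, and 0.62 and 0.77. These 3 genes were around 0 in pair 1 and positive in the others, as Ugcg and Cyp4f39 were. Aloxe3, which acts after Alox12b, had -0.35 and -0.87 in pair 1 and between 0.07 and 0.34 elsewhere. Pnpla2, a triglyceride lipase that Abhd5 also activates, had 0.29 ± 0.16 (limma adjusted p = 0.299).

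**Figure D4:**
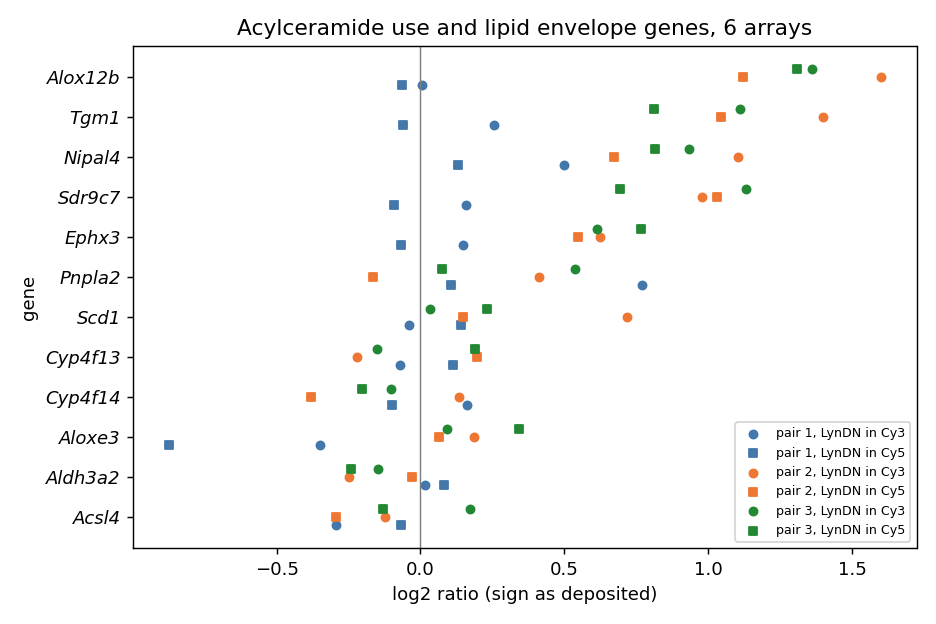
Log2 ratio of 12 genes listed under acylceramide use and the lipid envelope (vertical axis) on each of 6 arrays. Colour marks the mouse pair and shape the dye orientation. Alox12b, Sdr9c7 and Ephx3 lie between -0.09 and 0.16 in pair 1 (blue) and between 0.55 and 1.60 in the other pairs.

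Smpdl3a, a relative of acid sphingomyelinase that acts on nucleotides, had the smallest p of the other sphingolipid genes. It had 0.52 and 0.53 in pair 1, 0.59 and 0.99 in pair 2, then 0.51 and 0.82 in pair 3. All pairs were alike in it, with a mean of 0.66 ± 0.13 (SD, n = 3; limma adjusted p = 0.139), and it passed with the block (0.00982). The list it belongs to had a median of -0.06 over 9 genes, and Samd8 had 0.08 ± 0.05. Fatty acid elongation (13 genes, median -0.03) held Elovl3, an elongase of sebaceous glands, at 0.32 ± 0.14 and Elovl5 at -0.36 ± 0.21. Elovl4, which makes the longest chains of acylceramide, had -0.33 and -0.32 in pair 1 and between 0.04 and 0.51 elsewhere, and was named after its values were seen.

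The remaining lists held few large ratios. Glycosphingolipid synthesis (8 genes, median -0.01) included the ganglioside synthase B4galnt1 at 0.50 ± 0.30 and the sulfotransferase Gal3st1 at -0.30 ± 0.16, each with 1 sign on all arrays. Lysosomal breakdown (9 genes, median 0.02) included the activator protein Gm2a at 0.32 ± 0.46 and Scarb2, the receptor that carries glucocerebrosidase to lysosomes, at 0.23 ± 0.15. Sphingolipid transport (6 genes, median 0.05) included Gltp, a glycolipid transfer protein, at 0.31 ± 0.18 and Abcb1a at -0.12 ± 0.05. The 5 receptors of sphingosine 1-phosphate had a median of 0.02, with S1pr5 at -0.11 ± 0.17 and S1pr4 at -0.06 ± 0.08. Fatty acid transport proteins (5 genes, median -0.02) included Slc27a3 at 0.19 ± 0.16 and Slc27a6 at -0.29 ± 0.20. In limma none of the genes in these 5 lists passed, whether on pair values or with the block. Without pair 1, 1 gene passed positive in each of glycosphingolipid synthesis, lysosomal breakdown and sphingolipid transport. In that fit 1 fatty acid transport protein passed negative and no receptor passed, where 3.22% of all rows passed positive and 1.67% negative.

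Some members changed sign with the dye orientation, in a share close to that of all rows. Kdsr, Ormdl3 and Smpd2 were positive on every array with LynDN in Cy3 and negative on every array with LynDN in Cy5, and Cerk the reverse. These are 11.1% of the members, and 11.4% of all rows behaved so. Ormdl3 had 0.28, 0.36 and 0.16 against -0.25, -0.33 and -0.58. Cerk had -0.40, -0.27 and -0.31 against 0.32, 0.16 and 0.18. With the dye as a term of the block fit, 2 members (Ormdl3 and Cerk) passed for dye, against 2.56% of all rows. Averaging the swap cancels such a difference, and the means of these 4 genes lay within 0.06 of 0. By contrast Sphk1 had -0.44 and -0.43 in the 2 orientations, Sgpp1 -0.37 and -0.41, and Degs2 1.20 and 1.11.

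**Figure D5:**
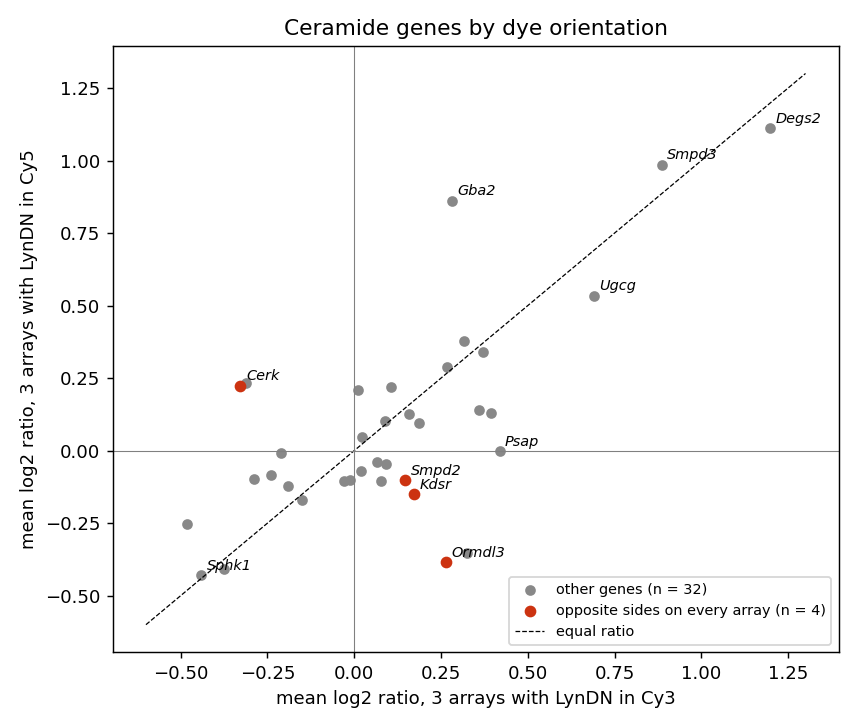
Mean log2 ratio over the 3 arrays with LynDN in Cy5 against that over the 3 arrays with LynDN in Cy3 for 36 ceramide genes, with a dashed line of equal ratio. Degs2, Smpd3, Sphk1 and Sgpp1 lie near the line, and the 4 genes in red lie on opposite sides of 0 on every array.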

How the data were processed

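Skin RNA of 3 WT and 3 LynDN mice was extracted with Qiagen and labelled with Ambion reagents, per the labels' protocols, and hybridised on 6 two-channel arrays. The authors deposited 1 log2 ratio per probe and array (25344 probes, -6.34 to 6.16, 0 missing), centred on a mean of 0. Scanner, background correction and normalization are not stated in these sources, nor are base and numerator, and without spot intensities neither background nor saturation could be examined. Array medians ran from -0.02 to 0.0014.

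Probes with 1 symbol in the platform annotation (21082) were averaged per symbol, to 18617 genes. The 30 probes of several symbols and the 4232 of none each stayed a row of their own, which gave 22879 rows. Per the labels each dye swap repeats 1 pair of mice, so its arrays were averaged. The 3 pair values were compared with 0 by lmFit and eBayes (limma 3.58.1, R 4.3.3), with Benjamini-Hochberg adjustment over all rows and a threshold of 0.05. SDs are over these pair values. The block fit used 6 arrays, a dye term and duplicateCorrelation (0.151). Its single correlation treats dye swaps of rows that vary between pairs nearly as separate mice. The number of arrays limits the precision. One array of pair 2 carries another date in its label than the other arrays, too few for a value by date. Figures were drawn with matplotlib 3.10.9.

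The members, the 8 pathway lists and the 13 marker lists were chosen with earlier results of these data known. Array values were given for 17 members: those passing in the pair or block fit, of 1 sign on 6 arrays, among the 12 largest means, or of smallest p in a role. Of each pathway list, genes passing in either fit and the 2 of smallest p were named.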

Additional observations from a re-analysis of the deposited data

Results flagged for a closer look

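For 4 of 36 genes (11.1%) the ratio lay on opposite sides of 0 in the 2 dye orientations on every array. The same held for 11.4% of all rows. The difference of the orientations (LynDN in Cy5 minus LynDN in Cy3, on the log2 scale) was -0.65 for Ormdl3, 0.55 for Cerk, -0.32 for Kdsr and -0.25 for Smpd2. A dye term in the block fit passed over all rows for Ormdl3 and Cerk (limma adjusted p = 0.0321 and 0.0305) and did not for Kdsr and Smpd2 (0.0883 and 0.173). In that fit 2.56% of all rows passed for dye. Samples in groups of 3 were not examined for outlying values.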

How the results depend on the processing

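The mouse pair decided most calls. With the replicate block over 6 arrays, 138 rows passed positive and 105 negative, and 0 and 2 of the members. Leaving out 1 mouse pair gave 2 to 736 positive and 0 to 381 negative rows, and 0 to 6 positive and 0 to 2 negative members, where the highest counts came without pair 1. Quantile normalization gave 59 and 20 rows, ordinary statistics without moderation 0 positive and 0 negative, and every probe as a row 4 and 1, with 0 members in each of these fits. At an unadjusted p under 0.05 the statistics without moderation had 684 rows and 1 member positive, 1068 rows and 4 members negative. With only the arrays with LynDN in Cy3, 42 and 12 rows passed, and with only those with LynDN in Cy5, 12 and 12, with 0 members in both. The members' median was 0.0904 on arrays with LynDN in Cy3, against 0.02 over both orientations. Centring arrays on the median, robust moderation and the median over probes left the counts at 4 and 0. The mean changed sign under some setting for 13 members, with Psap (0.21) the largest of these in size, while the other 23 kept their sign in all settings run. These changes came with a left-out pair or a single dye orientation. With 3 pairs, and 2 after leaving 1 out, a member that did not pass is not shown to be equal in the genotypes.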
